A study of Mus musculus with 12 samples.

Results

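Bone morphogenetic protein (BMP) signalling and its immediate Id targets were followed through 10 genes: the ligands Bmp2, Bmp4, Bmp7 and Bmp10, the receptors Bmpr1a and Bmpr2, the secreted antagonist Grem1, and the target genes Id1, Id2 and Id3. They were taken from a list of names and matched by symbol to the Ensembl identifiers of the count files. All 10 were found among 43629 gene identifiers, and 9 of them were among the 15059 genes with enough reads to be tested. Bmp7 had too few reads.

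The data are RNA-seq read counts from 12 libraries of C57BL/6 mouse cells, 3 in each of 4 groups. Mouse embryonic fibroblasts (MEFs) labelled AGHMT received the transcription factors Gata4, Hand2, Mef2c and Tbx5 together with the kinase Akt, and MEFs labelled GHMT received these 4 factors without Akt. Both were collected 3 weeks later after sorting for a GFP reporter driven by the αMHC promoter, a promoter of cardiac muscle, so each holds the cells that had switched the reporter on. CM libraries came from cardiomyocytes isolated from adult ventricles, which received no vector. E libraries came from MEFs 3 weeks after an empty vector, and neither the CM nor the E labels name a sort. Nothing in the labels says that the 3 libraries of a group came from separate cultures or animals, so p-values measure the spread between these libraries, which may be technical.

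BMP ligands bind paired type I and type II serine/threonine kinase receptors, such as Bmpr1a and Bmpr2. The receptors phosphorylate Smad1, Smad5 and Smad8/9, which enter the nucleus with Smad4 and switch on genes such as Id1, Id2 and Id3. Id proteins lack a DNA-binding region and hold E proteins away from their tissue-specific helix-loop-helix partners. In the embryonic heart, BMP signals help to specify the cardiac field, Bmp2 is known from the atrioventricular canal, and Bmp10 from the trabeculae and later the right atrium.

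Reads assigned to genes numbered 14386407 to 18493989 in the AGHMT-labelled libraries, 1872558 to 2200815 in GHMT, 5120230 to 15952646 in CM and 15971154 to 33552138 in E libraries. Mitochondrially encoded genes took 36.6% to 42.7% of these reads in AGHMT-labelled, 27.8% to 72.2% in GHMT, 40.0% to 59.9% in CM and 3.65% to 7.36% in E libraries. The mitochondrial gene mt-Nd6 alone took 43.09%, 3.34% and 14% in GHMT 1, GHMT 2 and GHMT 3, against 2.55% or less in every library of the other groups. A GHMT library therefore shows low genes less precisely than the others: 3 reads over the group, the limit that a count of 0 allows, are 0.0606 CPM (reads scaled to an equal library size) in AGHMT-labelled, 0.725 in GHMT, 0.103 in CM and 0.0246 in E libraries. Such limits and the intervals on read shares cover counting error only. Levels in CPM carry edgeR's TMM scaling factors, and RPKM is the same value per kilobase of exon. The factor was 0.347 in GHMT 1, 0.903 in GHMT 2 and 0.777 in GHMT 3, and a smaller factor raises the CPM of every gene in its library. Of the introduced genes, Gata4, Mef2c and Tbx5 were higher than in E libraries in both factor groups, and Hand2 was not called in either (adjusted p = 0.115 and 0.166). Akt1 averaged 13.0 ± 6.22 CPM in AGHMT-labelled and 9.54 ± 7.12 CPM in GHMT libraries (SD, n = 3 each; log2 difference 0.34, adjusted p = 0.786), against 62.9 ± 41.3 CPM in E libraries. The Akt1 level goes against the AGHMT label, though whether reads of the introduced Akt would be counted as Akt1 is not given in the sources and was not tested. Every direction drawn from these libraries rests on that label. Summed markers of cardiomyocytes were 3597 to 4053 CPM in AGHMT-labelled and 648 to 1140 CPM in GHMT libraries, against 21549 to 48502 CPM in CM and 6.69 to 13.4 CPM in E, with no one of the 7 at 0 in any group. Summed markers of fibroblasts were 6358 to 7454 CPM in AGHMT-labelled, 2159 to 4281 CPM in GHMT and 647 to 685 CPM in CM libraries, against 13073 to 20907 CPM in E.

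In outline, Bmp2, Bmpr1a and Bmpr2 were higher in both factor groups than in E libraries, and Id1 and Id3 were lower. The Id1 and Id3 calls were weaker. With a correction for the GC content of genes only Id1 in GHMT libraries, which rests on 1 read, stayed called. Id2 was not called in either factor group. The CM libraries held Bmp10, had hardly any Grem1, and had more reads of Id1 than of Id2 or Id3. Summed endothelial markers were 629 to 760 CPM in CM against 32.8 to 35.02 CPM in E libraries, and their part in these levels was not tested. A gene is called where the Benjamini-Hochberg adjusted p of edgeR's quasi-likelihood test over all 15059 genes is below 0.05. Against E, 4 of the 9 tested members were higher and 3 lower in AGHMT-labelled libraries, where 46.5% of all genes were called (21.9% higher, 24.6% lower). In GHMT libraries 3 were higher and 2 lower than in E, where 52.6% of all genes were called (19.8% higher, 32.9% lower). In CM libraries 2 were higher and 2 lower than in E, where 42% of all genes were called (19.5% higher, 22.5% lower). Between AGHMT-labelled and GHMT libraries no member was called higher and 4 were called lower. There 17.8% of all genes were called, 13.2% higher and 4.58% lower. Against CM, 5 were higher and 2 lower in AGHMT-labelled libraries, with 48.1% of all genes called (23.7% higher, 24.4% lower). In GHMT libraries 5 were higher and 3 lower than in CM, with 58.6% of all genes called (23.8% higher, 34.7% lower). The libraries of the compared groups did not overlap for 7, 7, 6, 4, 7 and 8 tested members in AGHMT against GHMT, AGHMT against E, GHMT against E, CM against E, AGHMT against CM and GHMT against CM. The shares over all genes in the same order were 45.9%, 71.6%, 59.5%, 57.2%, 70.5% and 58.6%. The 7 members in AGHMT against GHMT include Bmp10, which had no read in GHMT libraries. There 3 reads equal 1.56 to 3.93 CPM by library, above every AGHMT value of Bmp10, so that separation says nothing of its level. The members' median log2 fold change in AGHMT against GHMT was −1.08, beside 0.63 over all tested genes. A median with bounds sets a gene without reads in a group at its bound, and leaves it out where no bound can be given. That rule left out Bmp10 in AGHMT against GHMT and in GHMT against E, and gave −1.32 and 1.15 over 8 members. In AGHMT against E the members' median was −0.06 beside −0.16, and in GHMT against E 1.02 beside −1.06. It was −0.40 beside −0.26 in CM against E, 1.59 beside −0.05 in AGHMT against CM, and 2.66 beside −0.89 in GHMT against CM. The medians over all genes are without bounds, and they changed with depth. With reads outside mitochondrial genes thinned to 612458 per library, 8835 genes were tested. Their medians were then 0.18, −0.06, −0.25, −0.03, −0.18 and −0.36 in the same order of comparisons. In whole-library RNA, fewer cells that express a gene and less RNA of it per cell cannot be told apart.

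**Figure D1:**
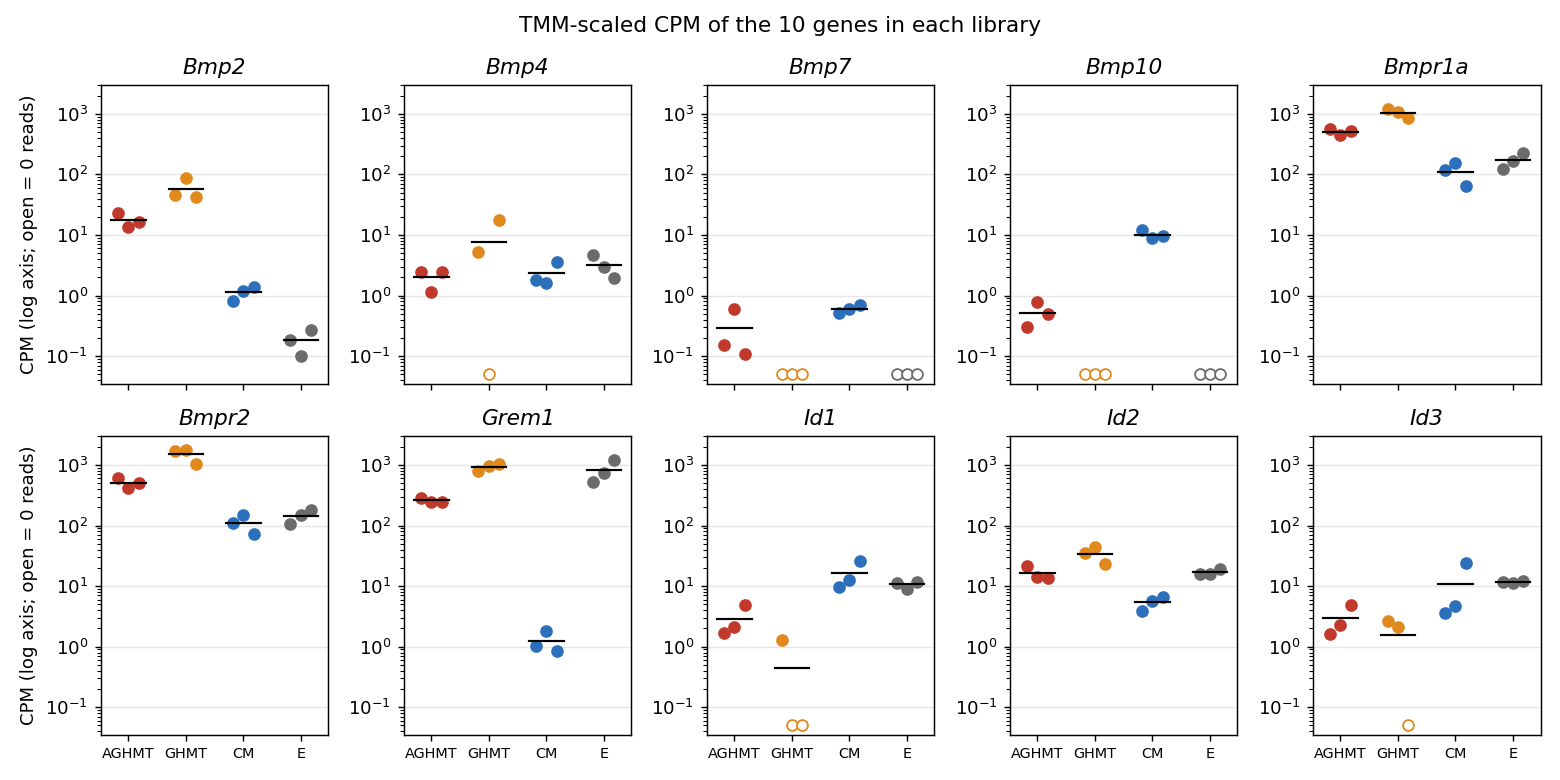
Level of each of the 10 genes by library, in TMM-scaled CPM on a log axis, with the groups AGHMT, GHMT, CM and E from left to right, 3 libraries each; open points stand for libraries without a read. Bmp2, Bmpr1a and Bmpr2 are highest in the GHMT libraries, Bmp10 in the CM libraries, and Grem1 is near 1 CPM in the CM libraries.

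Bmp2, a ligand higher in the other 3 groups than in E, is at chr2:133552159-133562885 on the plus strand (ENSMUSG00000027358; mm10). It had 23.4, 13.6 and 16.5 CPM in the AGHMT-labelled libraries, 45.9, 87.0 and 41.9 CPM in GHMT, 0.818, 1.21 and 1.37 CPM in CM, and 0.184, 0.101 and 0.275 CPM in E libraries. No 2 groups overlapped, and the order from high to low was GHMT, AGHMT, CM and E. Against E, Bmp2 exceeded it on the log2 scale by 6.51 (SE 0.587, adjusted p = 1.18e-06) in AGHMT-labelled libraries and 8.23 (SE 0.628, adjusted p = 2.58e-07) in GHMT libraries. With GC correction these values were 7.19 and 9.32, and with total counts 5.68 and 6.95. The CM libraries exceeded E by 2.52 (SE 0.557, adjusted p = 0.00193), a call that was lost with scaling to total counts (1.55, adjusted p = 0.0758). It was lost too with all libraries thinned to the same number of reads outside mitochondrial genes (3.34, adjusted p = 0.095). Bmp2 was lower in AGHMT-labelled than in GHMT libraries by −1.72 (SE 0.463, adjusted p = 0.0215). That call depended on single libraries: it was lost without GHMT 2 (−1.30, adjusted p = 0.0654), AGHMT 2 (−1.55, adjusted p = 0.108), AGHMT 3 (−1.03, adjusted p = 0.264) or E 1 (−1.11, adjusted p = 0.126). It was also lost with total counts (−1.27, adjusted p = 0.152), without mitochondrial genes in the scaling (−1.34, adjusted p = 0.0548) and after thinning (−1.69, adjusted p = 0.0676). Above CM, the log2 difference was 4.0 (adjusted p = 5.47e-05) in AGHMT-labelled and 5.71 (adjusted p = 1.79e-06) in GHMT libraries. Per kilobase of exon Bmp2 reached 5.01 RPKM in AGHMT-labelled and 16.4 RPKM in GHMT libraries, against 0.319 in CM and 0.0526 in E.

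Bmp10, a ligand made by heart muscle, was highest in the CM libraries. It lies at chr6:87428994-87437677 on the plus strand (ENSMUSG00000030046). It had 0.307, 0.771 and 0.491 CPM in the AGHMT-labelled libraries, from 27 reads in all, against 12.2, 8.76 and 9.45 CPM in the CM libraries. No read was found in any of the 3 GHMT or 3 E libraries. Summed markers of atrial and nodal cardiomyocytes were 185 to 479 CPM in CM and 74.4 to 129 CPM in E libraries. They were 449 to 768 CPM in AGHMT-labelled and 1401 to 2990 CPM in GHMT libraries. Whether atrial cells account for Bmp10 in the CM libraries was not tested. Bmp10 reached the read minimum of the test only through the CM libraries, where it is highest. Its calls in CM, and its place in the counts of members called or not overlapping, are therefore not independent of that filter. With only the AGHMT and E groups fitted, 8 members were tested, and 3 were called higher and 3 lower. Against E, whose floor is 0.0246 CPM, Bmp10 was at least 22.2-fold higher in AGHMT-labelled libraries (adjusted p = 0.00049) and at least 426-fold higher in CM libraries (adjusted p = 8.23e-06). AGHMT-labelled libraries were below CM by −4.24 on the log2 scale (SE 0.686, adjusted p = 0.000694), and GHMT libraries were at least 14.4-fold lower than CM (adjusted p = 0.000442). The AGHMT level of 0.523 ± 0.233 CPM (SD, n = 3) lies below the 0.725 CPM that a count of 0 allows in GHMT, so a fold difference between the factor groups cannot be bounded at this depth. That difference was not called by edgeR (adjusted p = 0.137) and was called by limma on the deposited normalized values (2.21, adjusted p = 0.00193). The limma call cannot decide the question, since it takes a count of 0 as 0 at any depth. Its value against E was the same 2.21. The promoter of Bmp10 is shown because GATA and T-box factors were among the genes introduced. It covers 250 bases before and 50 after the RefSeq start, chr6:87428744-87429043 on the plus strand of GRCm38.p6, with matches to AGATAA (the GATA core) and GGTGT (a T-box core) in capitals:
Bmp10: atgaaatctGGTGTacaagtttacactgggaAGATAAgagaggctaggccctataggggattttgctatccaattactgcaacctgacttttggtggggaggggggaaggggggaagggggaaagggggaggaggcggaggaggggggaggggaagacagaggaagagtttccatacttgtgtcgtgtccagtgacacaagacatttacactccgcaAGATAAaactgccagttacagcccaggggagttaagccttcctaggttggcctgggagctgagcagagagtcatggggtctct
AGATAA begins at positions −219 and −33 from the start and GGTGT at −241. Searched on both strands, AGATAA is in 11.2% and GGTGT in 41.6% of 32851 RefSeq promoters of this length. A MEF2 motif, found in 3.2% of promoters, was in none of the 7 members' promoters that the table holds. A match describes letters in this window and says nothing of binding in these cells.

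Bmp4, a ligand of mesoderm and of fibroblasts, is at chr14:46383520-46390669 on the minus strand (ENSMUSG00000021835), where its exons overlap Gm15217 on the opposite strand. It did not differ by the test between any pair of groups, and all groups overlapped. It had 2.46, 1.16 and 2.45 CPM in AGHMT-labelled libraries, 5.24, 0 and 17.9 CPM in GHMT, 1.78, 1.61 and 3.61 CPM in CM, and 4.63, 2.98 and 1.93 CPM in E libraries. The GHMT libraries span nearly the whole range on 4, 0 and 26 reads. Without GHMT 2, the library with no read, Bmp4 was called lower in AGHMT-labelled than in GHMT libraries (−2.56, adjusted p = 0.0251) and higher in GHMT than in E (1.91, adjusted p = 0.0344) and CM (2.41, adjusted p = 0.0118). Corrected for GC content, it was also called higher in GHMT than in E (2.35, adjusted p = 0.0267) and CM (2.88, adjusted p = 0.0114). The strand setting of the authors' counting is not given in the sources used here, so reads of Bmp4 and Gm15217 may not be told apart, and the same holds for Bmpr1a and the antisense Gm17110.

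Bmp7, a further ligand (ENSMUSG00000008999, chr2:172868012-172940321, minus strand), was near the limit of detection. It had 2, 11 and 2 reads in AGHMT-labelled and 7, 6 and 4 reads in CM libraries, and none in any GHMT or E library. These pooled reads put it at least 12.3-fold higher in AGHMT-labelled and at least 23.7-fold higher in CM than in E libraries, with no value in the fit over 15059 genes since it did not reach the read minimum. With no filter it was tested and called higher than in E in AGHMT-labelled (adjusted p = 8.98e-05) and CM libraries (adjusted p = 1.96e-06), and DESeq2 called both too (adjusted p = 0.00596 and 0.000217). GHMT could not be compared at this depth.

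Both receptors were highest in the GHMT libraries. Bmpr1a, the type I receptor also called ALK3, is at chr14:34410734-34503341 on the minus strand (ENSMUSG00000021796), where its exons overlap the antisense gene Gm17110. It had 569, 443 and 512 CPM in AGHMT-labelled libraries, 1184, 1078 and 868 CPM in GHMT, 119, 152 and 63.4 CPM in CM, and 122, 167 and 223 CPM in E libraries. The factor groups stood apart from each other and from CM and E, and CM and E overlapped. Bmpr1a rose against E, on the log2 scale, by 1.57 (SE 0.334, adjusted p = 0.00202) in AGHMT-labelled and 2.61 (SE 0.347, adjusted p = 4.62e-05) in GHMT libraries. It was higher than in CM by 2.19 (adjusted p = 0.000214) in AGHMT-labelled and 3.22 (adjusted p = 4.97e-06) in GHMT libraries, and CM did not differ from E by the test (−0.61, adjusted p = 0.150).

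Bmpr2, the type II receptor, lies at chr1:59763400-59879014 on the plus strand (ENSMUSG00000067336). It had 604, 417 and 511 CPM in AGHMT-labelled libraries, 1713, 1758 and 1037 CPM in GHMT, 108, 148 and 71.8 CPM in CM, and 106, 148 and 180.1 CPM in E libraries. The order was that of Bmpr1a, again with overlap between CM and E only. Against E it rose by 1.82 (SE 0.334, adjusted p = 0.000749) in AGHMT-labelled and 3.38 (SE 0.355, adjusted p = 6.13e-06) in GHMT libraries. Against CM the log2 differences were 2.22 (adjusted p = 0.00018) in AGHMT-labelled and 3.78 (adjusted p = 1.40e-06) in GHMT libraries. CM against E was not called (−0.40, adjusted p = 0.341). Bmpr2 gives fewer reads per kilobase than Bmpr1a in each group: 28.4 against 79.96 RPKM in AGHMT-labelled, 83.6 against 164 RPKM in GHMT, 6.08 against 17.6 RPKM in CM, and 8.05 against 26.9 RPKM in E libraries.

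The receptors' changes shrank once the GC content of genes was taken into account. By their longest annotated transcripts, Bmpr1a is 41.3% and Bmpr2 41% GC, near the lower edge of the tested genes. The middle of these genes lies at 47.6% and the lowest 10 percent at or under 40.5%. Genes at or under 40.5% GC were above their mean over libraries by a log2 value of 0.467 to 0.825 in AGHMT-labelled libraries and 0.77 to 1.22 in GHMT libraries, against −1.55 to −0.39 in CM and −0.915 to −0.0871 in E. With each library's GC trend removed, Bmpr1a was higher than in E by 0.55 (adjusted p = 0.0321) in AGHMT-labelled and 0.75 (adjusted p = 0.00569) in GHMT libraries. Bmpr2 was higher by 0.73 (adjusted p = 0.00648) and 1.41 (adjusted p = 5.48e-05). Against CM the corrected differences were 1.01 and 1.0 for Bmpr1a and Bmpr2 in AGHMT-labelled libraries, and 1.21 and 1.67 in GHMT libraries, each still called. With DESeq2 size factors the AGHMT-labelled libraries exceeded CM by 1.5 for Bmpr1a and 1.52 for Bmpr2, also called. All 8 GC-corrected values kept their direction and their call at a smaller size. With total counts, Bmpr1a in AGHMT against E was no longer called (0.73, adjusted p = 0.105). The other 3 receptor differences from E were 0.97 (adjusted p = 0.0446) for Bmpr2 in AGHMT-labelled libraries and 1.17 (adjusted p = 0.0127) for Bmpr1a and 1.94 (adjusted p = 0.000945) for Bmpr2 in GHMT libraries. With total counts CM was called below E for Bmpr1a (−1.69, adjusted p = 0.00179) and Bmpr2 (−1.47, adjusted p = 0.00517). Without E 1, Bmpr1a was also called lower in CM than in E (−0.98, adjusted p = 0.0354). The differences of GHMT from E were 2.0 for Bmpr1a and 2.78 for Bmpr2 without AGHMT 3, and 1.77 and 2.56 without E 1, all called.

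AGHMT-labelled libraries were below GHMT libraries by −1.04 for Bmpr1a (SE 0.330, adjusted p = 0.0425) and −1.56 for Bmpr2 (SE 0.332, adjusted p = 0.0073). The Bmpr1a call was lost without any one of GHMT 1, GHMT 2, AGHMT 1, AGHMT 2, AGHMT 3, CM 1, E 1 or E 2, with values between −1.12 without AGHMT 1 (adjusted p = 0.0942) and −0.36 without AGHMT 3 (adjusted p = 0.572). It was lost too with GC correction (−0.20, adjusted p = 0.470), total counts (−0.44, adjusted p = 0.401) and scaling without mitochondrial genes (−0.64, adjusted p = 0.152). The Bmpr2 call was lost without AGHMT 3 (−0.88, adjusted p = 0.167) and with total counts (−0.97, adjusted p = 0.075). It stayed past the threshold at −0.67 with GC correction (adjusted p = 0.0206) and at −0.91 without E 1 (adjusted p = 0.0493).

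**Figure D2:**
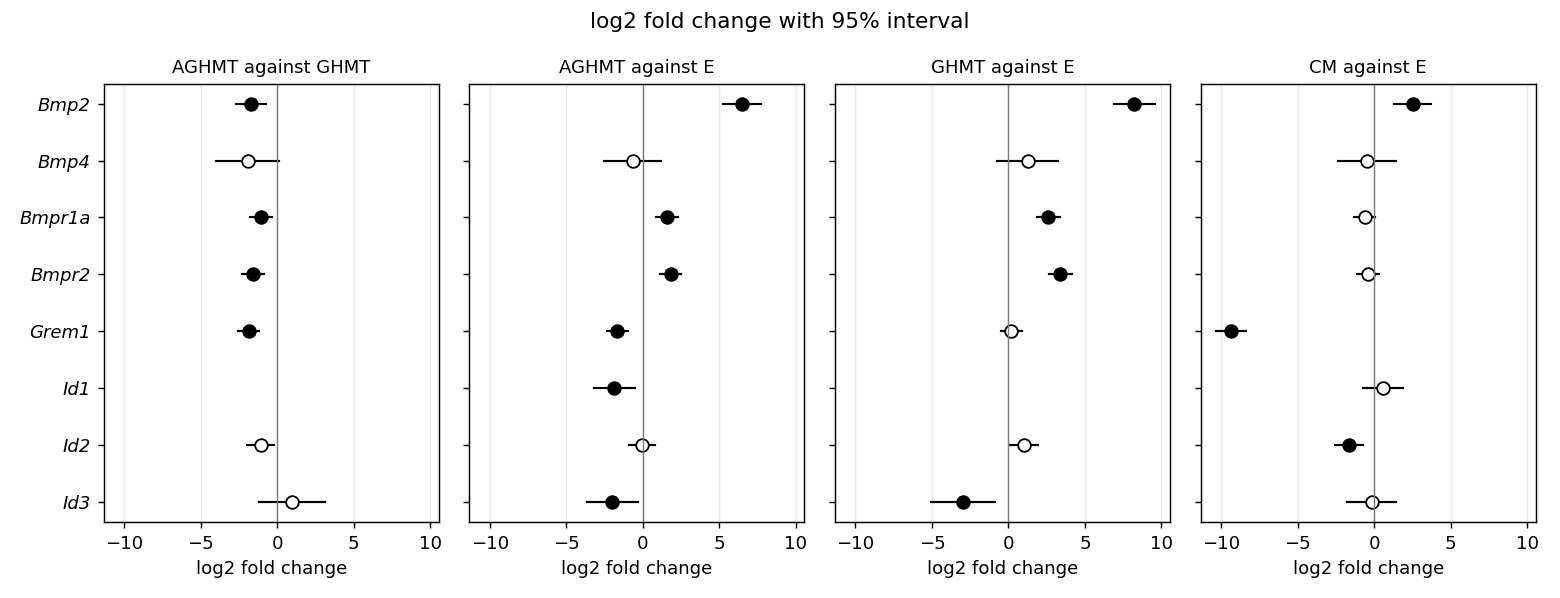
Log2 fold changes of the members in AGHMT against E, GHMT against E, CM against E and AGHMT against GHMT, with bars for the 95% intervals and filled points for adjusted p below 0.05; Bmp7, Bmp10 and the GHMT comparisons of Id1, which rest on groups with at most 3 reads, are left out. Bmp2 and both receptors lie to the higher side of E in both factor groups, and Grem1 lies far to the lower side in CM.

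Grem1, gremlin 1, binds BMP2, BMP4 and BMP7 outside the cell and keeps them from their receptors. It is at chr2:113746164-113758646 on the minus strand (ENSMUSG00000074934). It had 289, 244 and 245 CPM in AGHMT-labelled libraries, 808, 970.2 and 1018 CPM in GHMT, 1.04, 1.81 and 0.859 CPM in CM, and 517, 738 and 1204 CPM in E libraries. GHMT and E overlapped, the AGHMT-labelled libraries lay below both, and CM libraries were near 1 CPM. Grem1 fell against E by −9.34 (SE 0.470, adjusted p = 2.76e-09) in CM and by −1.66 (SE 0.325, adjusted p = 0.00117) in AGHMT-labelled libraries, where total counts gave −2.50. It was lower in AGHMT-labelled than in GHMT libraries by −1.85 (SE 0.328, adjusted p = 0.00285). Without AGHMT 3 the difference from GHMT was not called (−1.15, adjusted p = 0.0959), and without E 1 it was −1.22 (adjusted p = 0.0149). GHMT libraries did not differ from E by the test (0.19, SE 0.318, adjusted p = 0.635), with an interval of −0.49 to 0.86. That direction turned with total counts (−1.17, adjusted p = 0.0267) and with GC correction (−0.75, adjusted p = 0.0152), and both were called lower. Both factor groups were above CM, by 7.68 (adjusted p = 5.54e-08) in AGHMT-labelled and 9.52 (adjusted p = 1.68e-08) in GHMT libraries. Fibroblast markers were lower in CM than in E libraries as well, and their part in the Grem1 difference was not tested.

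The ratio of Grem1 reads to reads of Bmp4, a ligand it binds, was lowest in the CM libraries. No library scaling touches this ratio, and it is not corrected for gene length. There were 118, 211 and 99.7 Grem1 reads for each Bmp4 read in AGHMT-labelled libraries, 154 and 57.0 in GHMT 1 and 3, 0.583, 1.13 and 0.238 in CM, and 112, 248 and 625 in E libraries. GHMT 2 had no Bmp4 read. Bmp2 reads exceeded Bmp4 reads 9.5, 11.8 and 6.71 times in AGHMT-labelled libraries and 8.75 and 2.35 times in GHMT 1 and 3. In CM libraries the ratio was 0.458, 0.75 and 0.381, and in E libraries 0.0397, 0.0341 and 0.143. This ratio was above 1 in every factor library with a value and below 1 in every CM and E library. The promoter of Grem1, chr2:113758599-113758898 on the minus strand of GRCm38.p6, is shown beside those of Id2 and Id3 below, with GGCGCC (a GC-rich site bound by Smad1 and Smad5), CAGAC (the Smad binding element core), AGATAA and GGTGT in capitals on either strand:
Grem1: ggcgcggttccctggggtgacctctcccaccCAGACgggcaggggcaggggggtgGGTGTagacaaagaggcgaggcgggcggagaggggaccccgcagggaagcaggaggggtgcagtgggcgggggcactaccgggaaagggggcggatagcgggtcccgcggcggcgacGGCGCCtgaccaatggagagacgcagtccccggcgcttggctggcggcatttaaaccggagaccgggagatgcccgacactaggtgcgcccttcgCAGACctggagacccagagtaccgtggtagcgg
It holds GGCGCC at −78, CAGAC at −219 and 18, and GGTGT at −195, counted from the RefSeq start.

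Id1, Id2 and Id3 did not share one pattern. Id1 (ENSMUSG00000042745, chr2:152736251-152737410, plus strand), a common first responder to BMP, had 1.69, 2.15 and 4.91 CPM in AGHMT-labelled libraries. GHMT libraries had 1.31, 0 and 0 CPM, from 1 read in all, and CM libraries had 9.66, 12.8 and 26.1 CPM against 11.3, 9.09 and 11.5 CPM in E libraries. Both factor groups lay below CM and E, which overlapped. In AGHMT-labelled libraries Id1 was lower than in E by −1.86 (SE 0.630, adjusted p = 0.0260) and lower than in CM by −2.46 (SE 0.645, adjusted p = 0.00663). GHMT libraries were 44.7-fold lower than E (counting interval 8.02 to 1768, adjusted p = 0.0012) and 57.9-fold lower than CM (10.3 to 2293, adjusted p = 0.000371). The 12.6-fold difference between AGHMT-labelled and GHMT libraries (2.23 to 502) was not called (adjusted p = 0.0546). It was called with total counts (adjusted p = 0.0251), scaling without mitochondrial genes (adjusted p = 0.0289), no filter (adjusted p = 0.0481), DESeq2 (adjusted p = 0.0493) and limma (adjusted p = 0.0323), and without GHMT 1 (adjusted p = 0.0273), CM 3 (adjusted p = 0.0484) or E 1 (adjusted p = 0.0257). CM against E was not called (0.60, SE 0.608, adjusted p = 0.454).

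Id3 (ENSMUSG00000007872, chr4:136143497-136145755, plus strand) followed much the same order at lower precision. It had 1.61, 2.26 and 4.91 CPM in AGHMT-labelled libraries, 2.62, 2.08 and 0 CPM in GHMT, 3.57, 4.73 and 23.9 CPM in CM, and 11.6, 11.4 and 12.1 CPM in E libraries. The factor libraries all lay below E, and CM 3 stood apart from the other CM libraries. Id3 was lower than in E by −1.99 (SE 0.775, adjusted p = 0.0470) in AGHMT-labelled and −2.99 (SE 0.985, adjusted p = 0.0201) in GHMT libraries. It was lower in GHMT than in CM by −2.85 (adjusted p = 0.0233), while AGHMT-labelled against CM was not called (−1.85, adjusted p = 0.0619). The AGHMT difference from CM was called with DESeq2 size factors (−2.78, adjusted p = 0.0202), DESeq2 (−2.79, adjusted p = 0.00266), no filter (−1.76, adjusted p = 0.032) and thinning (−2.60, adjusted p = 0.0393), and without GHMT 3 (−1.83, adjusted p = 0.0354), CM 1 (−2.29, adjusted p = 0.0374) or CM 2 (−2.20, adjusted p = 0.0397). With GC correction it was −0.19 (adjusted p = 0.82).

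The lower Id1 and Id3 of AGHMT-labelled libraries were close to the threshold. Id1 against E was not called without AGHMT 1 (−1.58, adjusted p = 0.123), AGHMT 2 (−1.67, adjusted p = 0.105), E 1 (−1.81, adjusted p = 0.0746) or E 2 (−1.97, adjusted p = 0.053), nor with limma (−2.29, adjusted p = 0.0921). Id3 against E was not called without any one of the 6 libraries of these groups, with values between −2.49 without AGHMT 3 and −1.70 without AGHMT 1 (adjusted p = 0.0717 to 0.171). It was not called either with limma (−2.43, adjusted p = 0.133), thinning (−1.93, adjusted p = 0.124) or scaling without mitochondrial genes (−1.82, adjusted p = 0.075). The longest transcript of Id1 is 54.7% and that of Id3 55.6% GC. Genes at or above 55.4% GC were at −0.735 to −0.0898 on the log2 scale in AGHMT-labelled and −2.12 to −1.19 in GHMT libraries, against 0.315 to 2.03 in CM and 0.353 to 1.96 in E. With the GC trend removed, neither gene was called in AGHMT against E (Id1 −0.90, adjusted p = 0.184, and Id3 −0.92, adjusted p = 0.222). Corrected, Id1 stayed lower in GHMT than in E (−4.02, adjusted p = 0.0103) and CM (−4.33, adjusted p = 0.00551). Id3 was no longer called in GHMT against E (−1.54, adjusted p = 0.154) or CM (−0.81, adjusted p = 0.466), nor Id1 in AGHMT against CM (−1.22, adjusted p = 0.0827). Id3 in GHMT was not called without GHMT 3 against E (−2.38, adjusted p = 0.0596) or CM (−2.23, adjusted p = 0.0706), nor against CM without CM 3 (−1.51, adjusted p = 0.160).

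**Figure D3:**
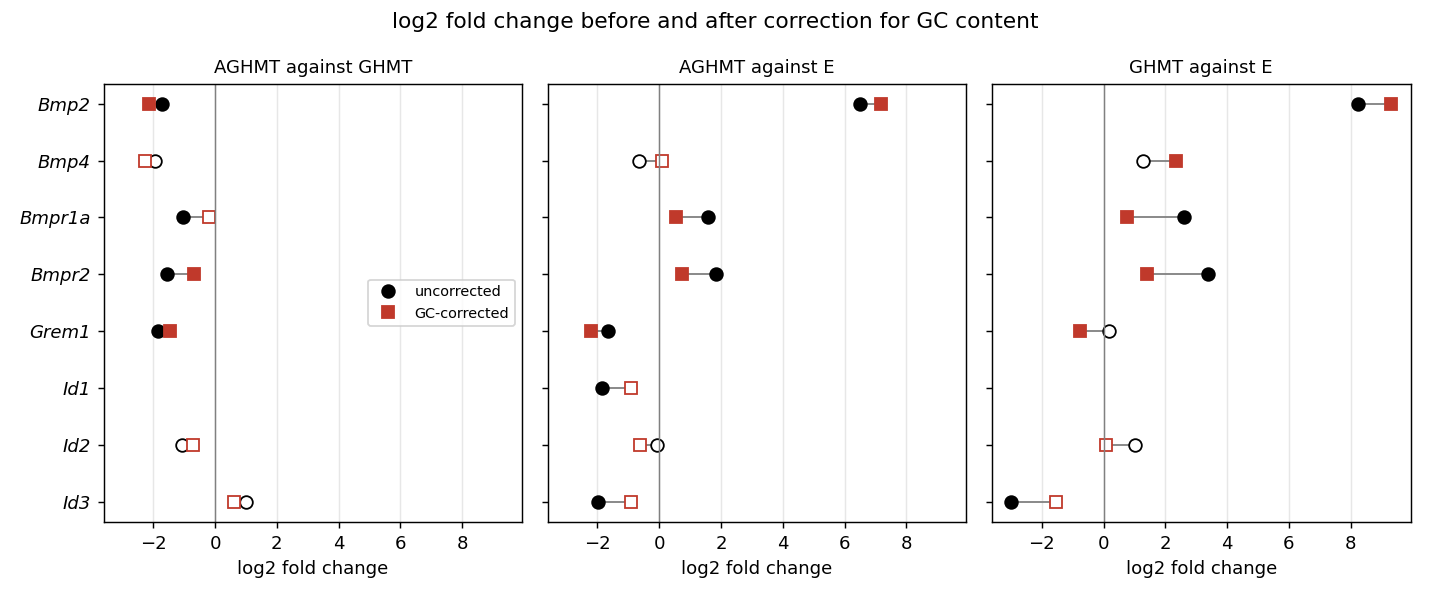
Log2 fold changes of the members before (circles) and after (squares) removal of each library's trend with the GC content of genes, in AGHMT against GHMT, AGHMT against E and GHMT against E, with filled symbols for adjusted p below 0.05. Against E, the GC-poor receptors move towards 0, as do the GC-rich Id1 and Id3, while Bmp2 moves away from 0; Id1 is left out where GHMT, with 1 read, is compared.

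Id2 (ENSMUSG00000020644, chr12:25093799-25097140, minus strand) had another order of groups. It had 21.2, 14.1 and 13.6 CPM in AGHMT-labelled libraries, 35.4, 44.3 and 23.4 CPM in GHMT, 3.94, 5.74 and 6.70 CPM in CM, and 16.1, 15.7 and 19.1 CPM in E libraries. GHMT libraries were highest and CM libraries lowest, and AGHMT-labelled libraries overlapped E. The AGHMT difference from E was −0.06 (SE 0.409, adjusted p = 0.920, interval −0.93 to 0.82), or −0.62 (adjusted p = 0.196) with GC correction. In GHMT against E it was 1.02 (SE 0.423, adjusted p = 0.0539), past the threshold without GHMT 3 (1.22, adjusted p = 0.0192) or under a stricter read filter (1.03, adjusted p = 0.0489), and 0.09 (adjusted p = 0.854) with GC correction. AGHMT against GHMT was −1.08 (adjusted p = 0.0883), and was called without GHMT 3 (−1.26, adjusted p = 0.033), with DESeq2 (−1.23, adjusted p = 0.0051) and with limma (−1.20, adjusted p = 0.043). CM libraries were below E by −1.64 (SE 0.427, adjusted p = 0.00588). Id2 was higher than in CM by 2.66 (adjusted p = 0.000201) in GHMT libraries, or 1.62 (adjusted p = 0.00408) with GC correction. In AGHMT-labelled libraries it exceeded CM by 1.59 (adjusted p = 0.00758), a call lost with DESeq2 size factors (0.81, adjusted p = 0.128), limma (0.83, adjusted p = 0.126), GC correction (0.91, adjusted p = 0.0738) and thinning (1.15, adjusted p = 0.132).

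Within the reads of these 3 genes, Id2 made up 72.1% in AGHMT-labelled libraries (1085 reads over the group, 58.1% to 86.5% by library) and 95.4% in GHMT libraries (153 reads, 90% to 100%). It was 18.8% in CM libraries (792 reads, 11.8% to 24.7%) and 42.7% in E libraries (4797 reads, 41.3% to 44.7%). The ranges of the 4 groups did not overlap. These shares carry the GC trend, since Id2 is 45.1% GC and Id1 and Id3 are richer. With GC correction the log2 differences of AGHMT from E were −0.62 for Id2, −0.90 for Id1 and −0.92 for Id3, none of them called. Id1 made up 51.6% of these reads in CM (46.1% to 56.3% by library), against 27.5% in E (25.1% to 29.0%). Id3 made up 29.6% in CM and 29.8% in E (28.4% to 31.5%). By library, Id3 was 20.78%, 20.35% and 42.12% in CM 1, CM 2 and CM 3, so the pooled CM share matched no single library. Per kilobase of exon, Id1 was the highest of the 3 in CM libraries at 14.0 RPKM, beside 5.99 for Id3 and 2.24 for Id2. The Id3 mean was raised by CM 3. In E libraries Id1 had 9.16, Id2 6.96 and Id3 6.54 RPKM. In AGHMT-labelled and GHMT libraries Id2 was the highest at 6.69 and 14.1 RPKM, with Id1 at 2.51 and 0.377 and Id3 at 1.63 and 0.876 RPKM.

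**Figure D4:**
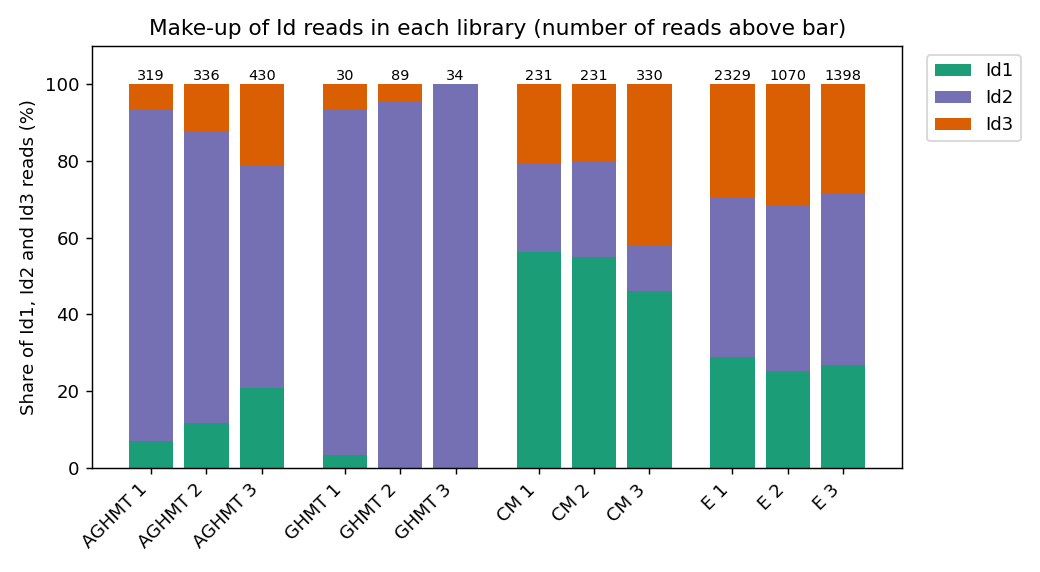
Percent of the reads of Id1, Id2 and Id3 that belong to each gene, as stacked bars from 0 to 100% for each of the 12 libraries, with the number of reads above each bar. Id2 takes 58.1% or more in every AGHMT-labelled and GHMT library, at most 24.7% in CM libraries and 41.3% to 44.7% in E libraries.

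Id3 was called lower in GHMT than in E libraries while Id2 was not called, and a difference between these genes was not tested. The Id3 call was lost with GC correction (−1.54, adjusted p = 0.154) and without GHMT 3 (−2.38, adjusted p = 0.0596). The promoters of Id2 and Id3 are shown as a description only. They are chr12:25096043-25096342 on the minus strand and chr4:136143572-136143871 on the plus strand of GRCm38.p6, from RefSeq, with the same motifs in capitals on either strand:
Id2: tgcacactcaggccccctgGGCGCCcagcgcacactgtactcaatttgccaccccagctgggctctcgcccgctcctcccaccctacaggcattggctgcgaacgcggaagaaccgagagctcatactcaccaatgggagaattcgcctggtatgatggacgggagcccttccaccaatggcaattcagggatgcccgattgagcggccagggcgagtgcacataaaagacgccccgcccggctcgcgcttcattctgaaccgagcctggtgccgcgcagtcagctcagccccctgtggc
Id3: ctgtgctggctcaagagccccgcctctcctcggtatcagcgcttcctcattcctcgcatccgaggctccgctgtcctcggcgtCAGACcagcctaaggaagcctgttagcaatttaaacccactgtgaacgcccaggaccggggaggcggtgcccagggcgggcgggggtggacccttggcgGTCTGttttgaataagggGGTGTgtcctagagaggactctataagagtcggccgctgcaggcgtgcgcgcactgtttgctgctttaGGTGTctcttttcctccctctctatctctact
Id2 holds GGCGCC at −231 and Id3 holds none, while Id3 holds CAGAC at −167 and −68 and GGTGT at −50 and 19, neither of which is in the Id2 window. Among all promoters GGCGCC is in 11.9% and CAGAC in 49.6%. An E-box, CANNTG, was in the Id2 window at −196 and is in 72.3% of all promoters. The promoters of Bmpr1a and Bmpr2 each hold GGCGCC, at −198 and −105. These matches, too, describe letters and say nothing of binding in these cells.

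The rest of the pathway was read from lists of other ligands, receptors, Smads, antagonists and target genes. Of all genes tested, 21.9% were higher and 24.6% lower in AGHMT against E, and 19.8% and 32.9% in GHMT against E. These shares were 19.5% and 22.5% in CM against E, and 13.2% and 4.58% in AGHMT against GHMT. The medians over all genes were −0.16, −1.06, −0.26 and 0.63 in the same order. Every list below is to be read beside these values. List counts against CM are not given. Of 10 other ligands, 4 were tested. In AGHMT against E 2 were higher and 1 lower, with a median of 2.58, and in GHMT against E 2 were higher and 1 lower (median 1.81). In CM against E 1 was higher and 1 lower (median −1.04), and in AGHMT against GHMT 0 were higher and 1 lower (median 0.47). Bmp3, a family member that opposes bone formation, had 16.1, 12.9 and 17.0 CPM in AGHMT-labelled and 41.9, 59.4 and 46.7 CPM in GHMT libraries, against 0.368, 0.237 and 0.275 CPM in E. The groups did not overlap, with log2 differences from E of 5.65 (adjusted p = 1.84e-06) and 7.34 (adjusted p = 3.23e-07), or 4.95 and 6.22 with GC correction. Bmp3 was lower in AGHMT-labelled than in GHMT libraries by −1.69 (adjusted p = 0.019), a call lost without AGHMT 1 (−1.72, adjusted p = 0.0709), AGHMT 2 (−1.57, adjusted p = 0.0988), AGHMT 3 (−1.12, adjusted p = 0.198) or E 1 (−1.07, adjusted p = 0.113). Gdf6, a ligand of joint and eye development, rose against E by 3.58 (adjusted p = 0.000438) and 3.38 (adjusted p = 0.000592), or 4.23 and 4.53 with GC correction. Bmp6 was the ligand higher in CM than in E (6.14 ± 2.59 against 0.617 ± 0.287 CPM, SD, n = 3 each, log2 difference 3.28, adjusted p = 0.00301).

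Of 9 other receptors and co-receptors, 8 were in the files and 7 were tested. In AGHMT against E 1 was higher and 4 were lower (median −1.07), in GHMT against E 1 and 3 (median −1.53), and in CM against E 1 and 3 (median 0.07). In AGHMT against GHMT none was called (median 0.33, or 0.07 with bounds over 6 genes). With GC correction the counts were 2 and 4, 1 and 4, 2 and 3, and 1 and 0, the last being Acvr2a (0.80, adjusted p = 0.0336). Acvrl1, the endothelial type I receptor ALK1, had 0.538, 1.21 and 0.327 CPM in AGHMT-labelled libraries and no read in GHMT libraries, against 15.3, 9.74 and 4.95 CPM in E. It was lower than E by −3.83 (adjusted p = 0.00181) in AGHMT-labelled libraries and at least 15.4-fold lower in GHMT libraries (adjusted p = 0.00117). With GC correction the AGHMT value was −2.46, still called. Acvr1, the type I receptor ALK2, was lower than E by −1.41 (adjusted p = 0.0139) in GHMT and −2.01 (adjusted p = 0.00135) in CM libraries. Acvr2a, a type II receptor and the most highly read of this list, was lower in CM than in E by −1.66 (adjusted p = 0.00241). Eng, endoglin, was higher in CM than in E libraries by 3.14 (adjusted p = 0.011), a call that rested on CM 3: the CM libraries had 8.92, 9.46 and 93.1 CPM, and without CM 3 the difference was 1.14 (adjusted p = 0.197). Summed endothelial markers were 629 to 760 CPM in CM against 32.8 to 35.02 CPM in E libraries, and their part in the Eng difference was not tested.

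All 8 Smads and Smad regulators were tested. In AGHMT against E 1 was higher and 1 lower (median 0.10), in GHMT against E 3 and 1 (median 0.47), in CM against E 0 and 1 (median −0.87), and in AGHMT against GHMT 0 and 1 (median −0.46). These counts depended on the scaling: in the same order they were 0 and 2, 0 and 3, 0 and 7, and 0 and 0 with total counts, and 2 and 2, 3 and 3, 0 and 4, and 0 and 3 with GC correction. Smad1, a BMP-activated Smad, had 49.6, 37.4 and 45.9 CPM in AGHMT-labelled libraries and 90.4, 63.0 and 69.4 CPM in GHMT libraries, against 18.4, 14.8 and 16.3 CPM in E. It rose by 1.42 (adjusted p = 0.00313) and 2.16 (adjusted p = 0.000152), and neither call held with total counts (0.58, adjusted p = 0.229, and 0.68, adjusted p = 0.14). Smad7, an inhibitory Smad and itself a target, was higher in GHMT than in E by 2.07 (adjusted p = 0.00469), a call that ended with total counts (0.35, adjusted p = 0.576). It was the 1 lower gene in AGHMT against GHMT (−2.02, adjusted p = 0.0182), which was not called without GHMT 1, AGHMT 1, AGHMT 2, AGHMT 3 or E 1 (−2.06 to −1.26, adjusted p = 0.0664 to 0.126). Smad5, the Smad with the highest level over all libraries, did not pass the test in any group against E. Smurf1, a ubiquitin ligase for Smad1 and Smad5, fell against E by −2.59 (adjusted p = 0.0013) in AGHMT-labelled and −3.08 (adjusted p = 0.000741) in GHMT libraries. With GC correction these Smurf1 values were −1.38 and −1.46, and those of Smad1 1.92 and 3.03, all called, and Smad7 in GHMT was 3.86.

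Of 14 other antagonists and modulators 11 were tested. In AGHMT against E 4 were higher and 4 lower (median −0.10), and in GHMT against E 3 and 4 (median 0.0, or 0.19 with bounds over 10 genes). In CM against E 1 and 3 were called (median −0.57), and in AGHMT against GHMT 1 and 2 (median 0.43, or −0.30 with bounds over 8 genes). In the same order the counts were 2 and 4, 2 and 6, 1 and 6, and 1 and 1 with total counts, and 3 and 2, 3 and 1, 1 and 4, and 1 and 2 with GC correction. Chrdl1, a chordin-like BMP binder, had 635, 433 and 542 CPM in AGHMT-labelled libraries, 398, 129 and 65.3 CPM in GHMT and 1.86, 2.52 and 2.06 CPM in CM, against 3.03, 2.87 and 2.60 CPM in E libraries. It rose by 7.56 (adjusted p = 4.52e-07) in AGHMT-labelled and 6.10 (adjusted p = 2.33e-06) in GHMT libraries, or 6.38 and 3.83 with GC correction, both called. Fst, follistatin, which binds activins and some BMPs, fell against E in CM libraries by −6.54 (adjusted p = 5.18e-08). Twsg1, twisted gastrulation, was higher in GHMT than in E by 2.21 (adjusted p = 7.96e-05), but not with total counts (0.77, adjusted p = 0.0849), and by 1.33 with GC correction. Fstl1, a follistatin-like protein, was lower in AGHMT-labelled than in GHMT libraries by −1.89 (adjusted p = 0.00188), and not called without AGHMT 3 (−1.16, adjusted p = 0.0535).

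Of 12 further BMP target genes, 11 were tested, among them Smad6, Smad7 and Bambi, which the lists above also hold. In AGHMT against E 3 were higher and 2 lower (median −0.10), and in GHMT against E 4 and 3 (median 1.10, or 1.24 with bounds over 10 genes). In CM against E 2 and 3 were called (median −0.19), and in AGHMT against GHMT 0 and 1 (median −0.54, or −0.65 with bounds over 10 genes). In the same order the counts were 1 and 3, 2 and 4, 2 and 4, and 1 and 0 with total counts, and 5 and 2, 5 and 2, 2 and 4, and 0 and 2 with GC correction. Tbx20, a T-box factor of the heart, rose most, with 1104, 783 and 994 CPM in AGHMT-labelled, 1446, 1480 and 979 CPM in GHMT and 152, 182 and 79.7 CPM in CM libraries, against 0.736, 0.777 and 1.07 CPM in E. The log2 differences from E were 10.12 (adjusted p = 4.28e-09), 10.56 (adjusted p = 3.13e-09) and 7.32 (adjusted p = 8.10e-09), or 9.17, 8.89 and 7.44 with GC correction. Bambi, a pseudoreceptor that dampens BMP signals, rose by 2.73 (adjusted p = 0.00413) in AGHMT-labelled and 3.27 (adjusted p = 0.00124) in GHMT libraries. With GC correction the Bambi values were 1.95 and 1.99, both called, and with total counts the AGHMT call was lost (1.90, adjusted p = 0.0592). Runx2, a factor of bone formation, fell by −1.93 (adjusted p = 0.00252) in AGHMT-labelled and −5.36 (adjusted p = 1.12e-06) in CM libraries. Id4, the remaining Id gene, fell in CM by −6.14 (adjusted p = 0.000257). Of the E proteins Tcf3, Tcf4 and Tcf12, which Id proteins bind, none was called in AGHMT against E, while 1 was called lower with DESeq2 size factors, total counts or GC correction. Tcf12 was lower in GHMT (−0.90, adjusted p = 0.0311; −2.05 with GC correction) and CM (−2.13, adjusted p = 0.000103) than in E. The GHMT call for Tcf12 was lost without GHMT 2, GHMT 3, AGHMT 1, AGHMT 2, E 2 or E 3, at −0.67 to −0.92 (adjusted p = 0.0514 to 0.0867).

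**Figure D5:**
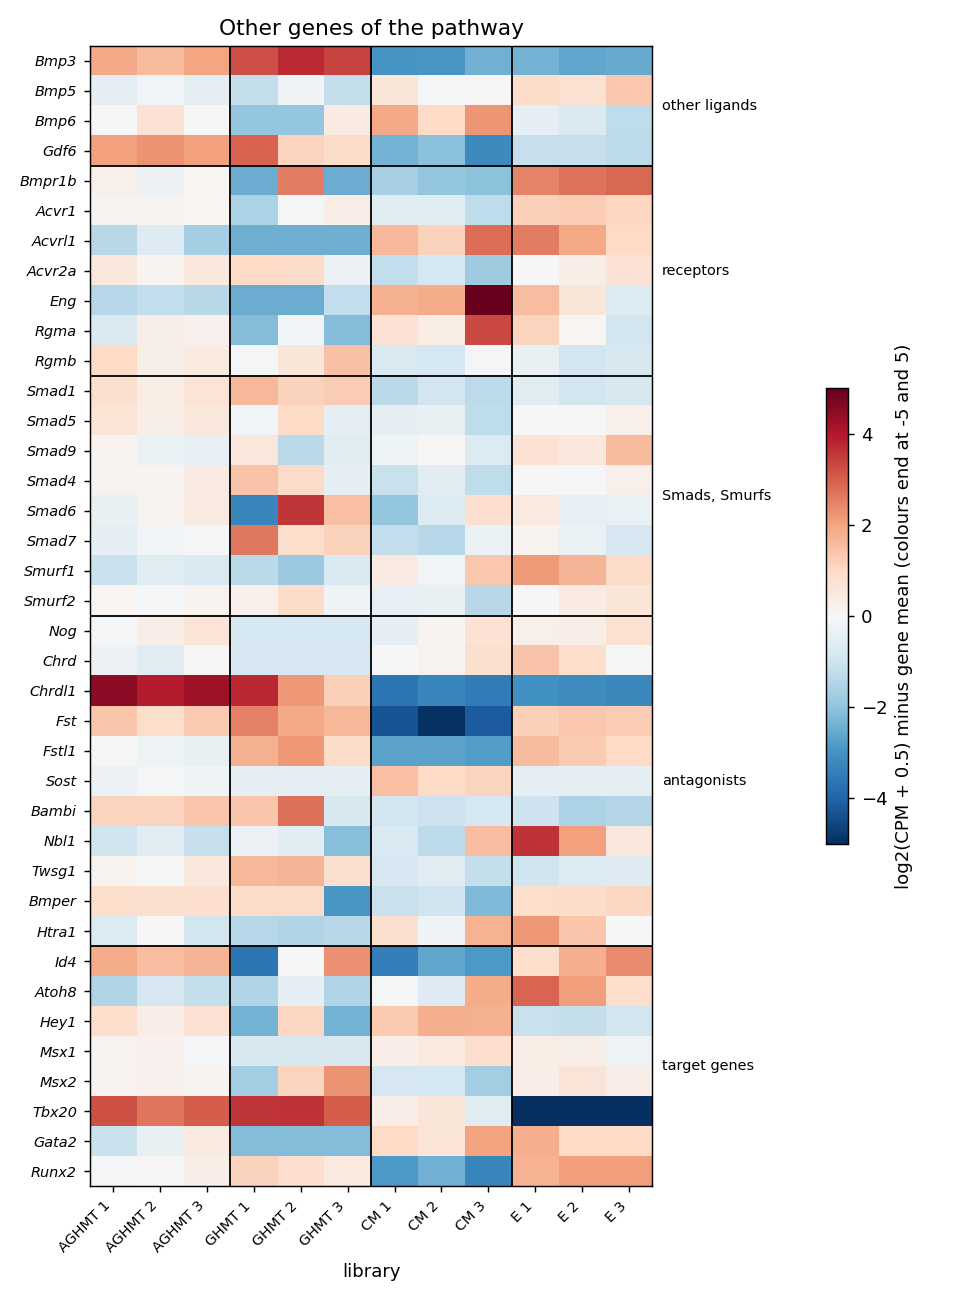
Tested genes of the pathway lists by library, with AGHMT, GHMT, CM and E from left to right; colour is log2(CPM + 0.5) minus the gene's mean over the 12 libraries and ends at −5 and 5. Tbx20 and Chrdl1 are high in the factor groups, Fst is low in CM, and members of the same list do not share one pattern.

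By the root mean square of log2 differences over the 12 libraries, the genes closest in pattern were sought among 5803 protein-coding genes for the 5 members with at least 10 CPM on average. Bmpr1a lay closest to Rab6a (0.135), Nipa2 (0.139) and Rc3h1 (0.141), against 1.42 for the middle gene. Bmpr2 lay closest to Zfp942 (0.173), Wasl (0.203) and Scai (0.205), against 1.60. Id2 lay closest to Fam118a (0.284), Sh3rf1 (0.322) and Wrn (0.322), against 1.21. The other members had no partner that close: Bmp2 was 0.634 from Ifit1, 0.666 from Spon1 and 0.721 from Xcr1, and Grem1 0.960 from Thbs1, 0.962 from Lox and 1.09 from Steap2, against 2.96 and 3.73 for the middle gene.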

How the data were processed

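RNA was sequenced from TruSeq Stranded libraries, per the labels' protocols. Per the submitters' processing notes, Bowtie2 2.0.6, HTSeq and DESeq were used with the mm10 build. No annotation version or strand setting is given in the sources used here. Deposited were files with 1 column of raw read counts per gene and library, and a table of normalized values (unit signal) that the authors scaled by size factors. All its values (100%) gave whole reads (tolerance 0.001) that equal the count files for all 10 members. HTSeq's rows without a gene, 8.45% to 20.2% of reads with no feature and 1.12% to 3.89% ambiguous, stayed out of library sizes and tests.

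Counts of all 12 libraries were fitted together with edgeR 4.0.16 (R 4.3.3; TMM scaling, filterByExpr with minimum count 10 and total 15, robust quasi-likelihood test, 6 comparisons of groups, Benjamini-Hochberg adjustment over 15059 genes, threshold 0.05). A count test on the reads recovered from the normalized table called 2678, 6995, 7923, 6312, 7242 and 8818 genes in AGHMT against GHMT, AGHMT against E, GHMT against E, CM against E, AGHMT against CM and GHMT against CM. The script was tested on simulated data. Alternatives were DESeq2 1.42.0, limma 3.58.1 on log2(deposited normalized value + 1), and other scalings and filters. Further ones were thinning to 612458 reads outside mitochondrial genes per library and a correction for GC content. The GC content was that of each gene's longest transcript (known for 99.5% of tested genes). The rest were a fit of the compared groups alone, a replicate block, and leaving out each library. A fit without GHMT 1, CM 3 and E 1 together, and the count test on recovered reads, were added after the data were seen. Replicates of a group differed by more than sampling noise, by a chi-square of 13.4 or more per degree of freedom. Gene positions are from GENCODE for mm10 (GRCm38), and promoters from RefSeq, which held 7 of the 10 members. The 10 members and the gene lists were chosen with earlier results of these data known. In each list, the genes named are the one with the highest mean CPM or those with the largest called changes, and a few further genes were chosen after their values were seen. Of the antagonist list, 1 gene is not reported here.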

Additional observations from a re-analysis of the deposited data

How the results depend on the processing

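Leaving out 1 library gave 636 values of member fold changes, of which 585 kept their direction and side of the threshold, 27 lost the call, 12 gained it and 12 changed direction without being called on either side. The other alternatives gave 622 values, of which 558 kept both, 28 lost the call, 18 gained it and 18 changed direction. Bmp10 in GHMT against E, with no read in either group, and the recovered reads, which equal the counts, are left out. Of the values that changed direction 2 were called, Grem1 in GHMT against E at −1.17 with total counts and −0.75 with GC correction. The others that turned were not called in either fit. For Bmp4 these were AGHMT against E at 0.09 and AGHMT against CM at 0.62 with GC correction, GHMT against E at −0.15 with total counts and −0.60 with limma, GHMT against CM at −0.55 with limma, CM against E at 0.00 with DESeq2, and AGHMT against CM at 0.23 without GHMT 1, CM 3 and E 1. Grem1 in GHMT against E was −0.04 and Id2 in AGHMT against E 0.12 without mitochondrial genes in the scaling. With total counts Id2 in GHMT against E was −0.37 and Id1 in CM against E −0.28. In CM against E, Bmpr2 was 0.02 after thinning, and Id3 was 0.45 with DESeq2 size factors, 0.19 without mitochondrial genes, 0.46 with DESeq2 and 0.67 after thinning. Leaving out 1 library gave Bmp4 −2.56 to 0.09 in AGHMT against GHMT, −0.74 to 1.91 in GHMT against E, −0.39 to 0.24 in AGHMT against CM and −0.27 to 2.41 in GHMT against CM. It gave Grem1 −0.69 to 0.57 in GHMT against E, Id2 −0.28 to 0.16 in AGHMT against E and Id3 −1.49 to 0.30 in CM against E. The cause of these changes was not tested.

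The 4 members called in AGHMT against GHMT, all lower, became 2 with total counts (1 higher, 1 lower) and 7 with limma (2 higher, 5 lower). Without mitochondrial genes in the scaling 3 were called (1 higher, 2 lower). When 1 library was left out 0 to 5 were called (0 without AGHMT 3, 2 without AGHMT 2). In CM against E 4 were called, 2 after thinning, where only 7 members had enough reads to be tested, and 4 to 5 when 1 library was left out. Fits with no filter, DESeq2 and 5 of the fits that left out 1 library tested 10 members, Bmp7 among them. When 1 library was left out the other comparisons ranged over 5 to 8 (AGHMT against E), 5 to 6 (GHMT against E), 7 to 8 (AGHMT against CM) and 7 to 9 (GHMT against CM). In AGHMT against CM, 7 without any alternative, 5 were called with GC correction and 6 with limma or after thinning. The genes called in AGHMT against GHMT, 2682, were 4679 with limma, 1740 with only these groups fitted, 1624 after thinning, and 1377, 1037 and 4073 without AGHMT 1, AGHMT 2 and E 1. The 6998 genes called in AGHMT against E were 3355 after thinning and 4522, 4238 and 4356 without AGHMT 1, AGHMT 3 and E 1. After thinning, a fit of 8835 genes called 4947 in GHMT against E (7927 without thinning), 3448 in CM against E (6319), 3853 in AGHMT against CM (7244) and 5471 in GHMT against CM (8821). The last was 4980 with only its groups fitted. Calls that were higher made up 74.3% in AGHMT against GHMT, but 63.7% with DESeq2 size factors, 95.4% with total counts and 90.4% without mitochondrial genes in the scaling. They were 47% (37.5%, 23.3% and 55.1%) in AGHMT against E, 37.6% (33.7%, 12% and 33.2%) in GHMT against E, 46.4% (58.3%, 22.7% and 55.5%) in CM against E, 49.4% (28.7%, 56.1% and 46.6%) in AGHMT against CM and 40.7% (30.5%, 32.9% and 32%) in GHMT against CM. With total counts the median gene moved to 1.17, −0.99, −2.38, −1.25, 0.13 and −1.28 in AGHMT against GHMT, AGHMT against E, GHMT against E, CM against E, AGHMT against CM and GHMT against CM. With DESeq2 size factors it was 0.52, −0.50, −1.27, 0.14, −0.78 and −1.53. With DESeq2 size factors AGHMT against CM was 3.25 for Bmp2, −4.97 for Bmp10, 6.99 for Grem1 and −3.30 for Id1, and with total counts CM against E was −2.60 for Id2, all called. Other scalings moved 49 of 120 group levels by more than 1 SD. The shallow GHMT libraries limit Bmp4, Bmp7, Bmp10, Id1 and Id3.

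Replicate numbers did not pair the samples: the correlations of same-numbered libraries ran from −0.719 to 0.13. With the replicate number as a block, 2 members and 1355 genes were called in AGHMT against GHMT. Bmp2 (−1.71, adjusted p = 0.0668) and Bmpr1a (−1.03, adjusted p = 0.0879) lost that call, as did Id3 in AGHMT against E (−2.20, adjusted p = 0.0507) and GHMT against CM (−2.43, adjusted p = 0.0666).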
